A study of Mus musculus with 4 samples.

Results

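Chromatin modifier and remodeler genes were taken as the peaks whose nearest gene was protein-coding and whose symbol began with Kat, Hdac, Sirt, Brd, Kmt, Setd, Kdm, Chd, Arid or Ing and a number, or with Smarc. The rule found 39 peaks of 25 genes, of 4088 peaks in all and of 2471 peaks nearest protein-coding genes. In the RefSeq annotation 107 protein-coding genes carry such a symbol, so 82 of them had no listed peak. The peaks came from chromatin immunoprecipitation sequencing (ChIP-seq) with an antibody to H3K27ac, histone H3 acetylated at lysine 27, in Sv129 mouse embryonic stem cells (mESCs). The cells were grown in folate-deficient medium (FA0, final folate 0 mg/L) or in control medium (FA4, final folate 4 mg/L), both with fetal bovine serum. One immunoprecipitated (IP) library and one input library were made for each medium, 4 libraries in all, from 1 cell line with 1 library per group. No replicate error exists, no test between the media was possible, and every value compares 2 libraries. The comparison asks where H3K27ac differed between the folate-deficient and the control cells.

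H3K27ac marks active promoters and enhancers. Acetyl groups are put on by lysine acetyltransferases (writers), taken off by deacetylases (erasers) and bound by bromodomain proteins (readers), and methyl groups on histone lysines have their own writers and erasers. ATP-dependent remodelers of the SWI/SNF, CHD and ISWI families slide or evict nucleosomes, and in embryonic stem cells BRG1 of the BAF complex is known for its part in self-renewal. Most of these genes are widely expressed, and many have CpG-rich promoters.

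The table lists regions where 1 IP library was higher than a control library. It does not name the control, and it was read as FA4 over FA0 because a sheet among the study's supplements names the same comparison in that order. So every listed peak is higher in FA4 by construction, a region higher in FA0 could not appear, and reversed libraries would reverse every direction below. The study's text describes slightly more H3K27ac without folate, the opposite direction. The pileup is the number of FA4 fragments stacked at the summit, and the local background is the FA0 level that the peak caller set it against, computed here from the pileup and the fold. That background is the largest of several local estimates rather than the FA0 pileup at the summit, and the fold is (pileup + 1) over (background + 1), FA4 over FA0. Over the whole list the pileups ranged from 8 to 265 fragments with a median of 12. Library depths are not given in the table. Of 12 pluripotent stem cell markers 8 had a promoter peak, Nanog, Pou5f1 and Sox2 among them, beside 4.73% of all protein-coding genes. So did 1 of 5 neural markers (Tubb3) and 1 of 3 trophoblast markers (Tfap2c). The counts were 0 of 10 for feeder fibroblast markers and 0 of 5 for endoderm and mesoderm markers. The list holds only regions that differed, so a marker without a peak may still carry the mark.

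The strongest promoter peaks of the members lay at Brd2, an acetylation reader of the BET family, at Setd1a, a writer of H3K4 methylation, and at Kat7, an acetylation writer. Their promoter sequences, from RefSeq on GRCm38.p6 (the mm10 build), are shown because these peaks lie on or beside them and carry the highest −log10 q among the acetylation and methylation genes' promoters. Each window runs from 250 bases before a tabulated start to 50 bases after it, 300 bases written 5′ to 3′ on the gene's strand, and capitals mark matches to the motifs searched. Brd2 has 3 tabulated starts on the minus strand, with an upstream window at chr17:34122558-34122857, a middle one at chr17:34121698-34121997 and a downstream one at chr17:34119851-34120150. The Setd1a window is chr7:127777139-127777438 on the plus strand and the Kat7 window is chr11:95310197-95310496 on the minus strand.
Brd2, upstream window: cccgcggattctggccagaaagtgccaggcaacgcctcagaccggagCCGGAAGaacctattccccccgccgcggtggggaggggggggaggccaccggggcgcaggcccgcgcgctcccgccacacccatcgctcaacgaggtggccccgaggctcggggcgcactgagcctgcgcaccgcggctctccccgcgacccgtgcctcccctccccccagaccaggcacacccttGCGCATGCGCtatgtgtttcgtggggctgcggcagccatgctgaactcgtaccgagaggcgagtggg
Brd2, middle window: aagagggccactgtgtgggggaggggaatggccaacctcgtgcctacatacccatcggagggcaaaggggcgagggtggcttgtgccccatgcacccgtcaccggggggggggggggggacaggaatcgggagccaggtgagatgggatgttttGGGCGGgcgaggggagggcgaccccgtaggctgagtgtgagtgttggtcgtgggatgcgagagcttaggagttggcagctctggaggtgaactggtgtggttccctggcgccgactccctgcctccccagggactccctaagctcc
Brd2, downstream window: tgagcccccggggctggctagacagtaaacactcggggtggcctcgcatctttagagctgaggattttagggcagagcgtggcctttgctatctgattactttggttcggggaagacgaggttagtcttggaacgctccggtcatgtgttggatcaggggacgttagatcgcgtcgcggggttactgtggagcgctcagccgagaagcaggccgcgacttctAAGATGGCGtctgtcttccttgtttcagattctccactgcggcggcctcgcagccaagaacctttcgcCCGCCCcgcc
Setd1a: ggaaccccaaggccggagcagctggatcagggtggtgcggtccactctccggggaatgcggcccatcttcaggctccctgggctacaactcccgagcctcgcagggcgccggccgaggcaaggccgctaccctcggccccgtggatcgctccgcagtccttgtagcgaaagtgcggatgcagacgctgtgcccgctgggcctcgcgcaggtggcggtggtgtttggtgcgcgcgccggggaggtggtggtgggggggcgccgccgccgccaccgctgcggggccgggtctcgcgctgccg
Kat7: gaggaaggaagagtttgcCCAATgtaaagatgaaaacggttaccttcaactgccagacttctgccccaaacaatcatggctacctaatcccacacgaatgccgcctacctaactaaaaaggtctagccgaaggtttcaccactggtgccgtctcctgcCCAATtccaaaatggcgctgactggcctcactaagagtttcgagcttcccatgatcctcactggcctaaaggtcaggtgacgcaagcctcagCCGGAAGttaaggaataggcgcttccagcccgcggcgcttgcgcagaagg
The capitals in the upstream Brd2 window are an ETS match and a pair of overlapping NRF1 matches, one on each strand. Those in the middle window are a GC box, and those in the downstream window a YY1 match and a GC box. The Kat7 window holds 2 CCAAT boxes and an ETS match, and the Setd1a window holds none of the motifs searched although it has 35 CpGs and a GC content of 73.7%.

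The 3 Brd2 windows each overlapped a peak, by 14, 62 and 248 bases in the order printed. The Brd2 summits fell 404, 215 and 227 bases downstream of those starts, and the 3 windows held 32, 14 and 24 CpGs. The Setd1a peak overlapped its window by 162 bases, with the summit 575 bases upstream of the start. The stronger Kat7 peak ended 10 bases from the window, and its summit lay 198 bases inside the gene. The peaks at these promoters were thus close to an annotated start but mostly not centred on it.

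Of the 107 member genes 25 (23.4%) had a listed peak of any class, beside 9.23% of the 21900 protein-coding genes of RefSeq. A promoter peak, within 3 kb of a transcription start in the authors' annotation, was listed for 16 members (15.0%), beside 4.73% of protein-coding genes. For promoter peaks within 1 kb the counts were 14 members (13.1%) beside 3.55%, and for promoter peaks with a −log10 q of at least 3 they were 10 members (9.35%) beside 2.95%. Peaks outside promoters were listed for 13 members (12.1%) beside 5.01%. The share of members with a peak was therefore above that of all protein-coding genes in each class counted. These shares are descriptions of 1 peak list, and no chance test was run on them.

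Member genes also differed from other genes in ways that move with having a peak. Their median length was 42409 bp, against 17146 bp for all protein-coding genes, and protein-coding genes with a peak had a median of 30796 bp. The 13 members with a peak outside promoters had a median length of 77998 bp. Among genes with 20 or more CpGs in a tabulated promoter window, 7 of 58 members (12.1%) had a promoter peak, against 539 of 6803 protein-coding genes (7.92%). Genes without a tabulated window could not be counted here. Of the genes with a promoter peak, 11 of 16 members and 848 of 1036 protein-coding genes had a window. The gap was thus smaller among CpG-rich genes with a window. The part of length, CpG content and missing windows in the counts was not tested. Zinc finger genes named Zfp and a number, another large family, had a promoter peak in 24 of 397 genes (6.05%).

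One of the 25 genes is doubtful. The peak named Chd1, chr17:17374305-17374758, is annotated to a transcript that starts at 17374332 and ends at 17394898, which is the place of Riok2 in RefSeq, whereas RefSeq puts Chd1 at 15704967 to 15772612 on the same chromosome. In the other 38 peaks the listed transcript overlapped the RefSeq gene of that name. Without it 24 of 107 members (22.4%) had a peak and 15 (14.0%) a promoter peak.

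**Figure D1:**
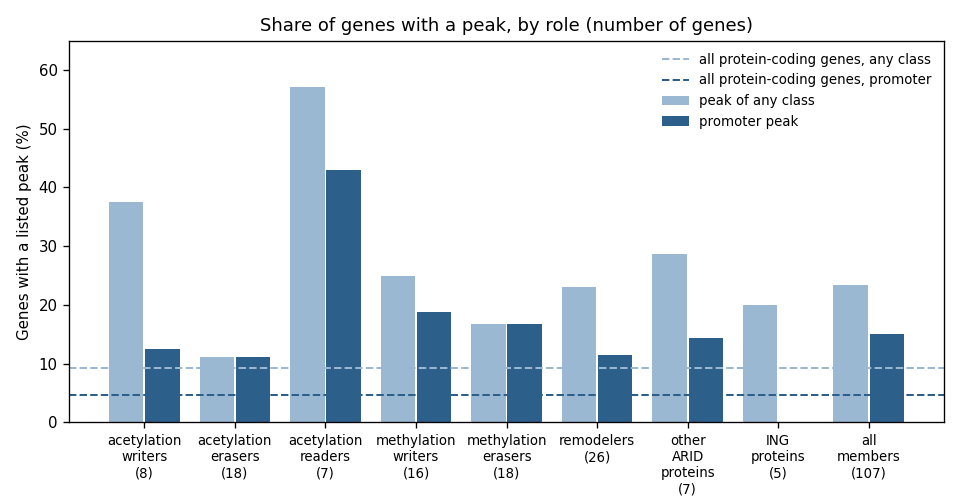
The bars give the percentage of genes with a listed peak of any class (light) and with a promoter peak (dark) for each role, with the number of genes in brackets, and the dashed lines give the same for all 21900 protein-coding genes (9.23% and 4.73%). Acetylation readers stood highest, at 57.1% and 42.9% of 7 genes, and acetylation erasers had 11.1% for both.

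Split by role, the acetylation genes (writers, erasers and readers) had a peak of any class in 9 of 33 genes (27.3%), the methylation genes (writers and erasers) in 7 of 34 (20.6%) and the remodelers in 6 of 26 (23.1%). Promoter peaks were listed for 6 acetylation genes (18.2%), 6 methylation genes (17.6%) and 3 remodelers (11.5%, or 2 of 26 without Chd1). Without Chd1, 5 of 26 remodelers had a peak of any class. Within the acetylation genes the roles were uneven, with 4 of 7 readers, 3 of 8 writers and 2 of 18 erasers having a peak. Writers and erasers of methylation had 4 of 16 and 3 of 18.

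The 39 peaks were spread unevenly over genes. Of the 25 genes 16 had 1 peak, 5 had 2 (Kat6b, Kat7, Kdm4b, Kmt2a and Chd1l), 3 had 3 (Brd2, Kdm5c and Arid5b), and Brd1 had 4. The chromosome with most member peaks was 17, with 7 peaks of Brd2, Kat2b, Kdm4b and the doubtful Chd1, and no member peak lay on chromosomes 1, 2, 6, 13, 16 or 19. By the authors' annotation 18 peaks lay within 1 kb of a start, 1 at 1 to 2 kb, 1 at 2 to 3 kb, 8 in introns, 3 in exons, 2 in 3′ UTRs and 6 in distal intergenic DNA. Promoters thus held 20 of 39 member peaks (51.3%, exact binomial 95% interval 34.8 to 67.6), against 47.8% of all peaks nearest protein-coding genes. That interval treats the 39 peaks as independent and leaves out their grouping by gene.

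The local FA0 background of the member peaks ranged from 1.60 to 51.6 and the FA4 pileup from 9 to 134 fragments. Fold (FA4 over FA0) ranged from 1.84 to 6.29 and −log10 q from 1.61 to 16.0. The median member peak had a background of 10.7 and a pileup of 31, against a background of 2.63 and a pileup of 14 over all peaks of protein-coding genes. Its median fold was 2.99, against 3.62. Member peaks therefore lay at sites with more signal in both libraries and a smaller fold. Leaving out Brd1 and Brd2, which gave 7 of the 39 peaks, brought the median background to 3.10, the median pileup to 15.5 and the median fold to 3.49, nearer to those of all protein-coding genes.

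**Figure D2:**
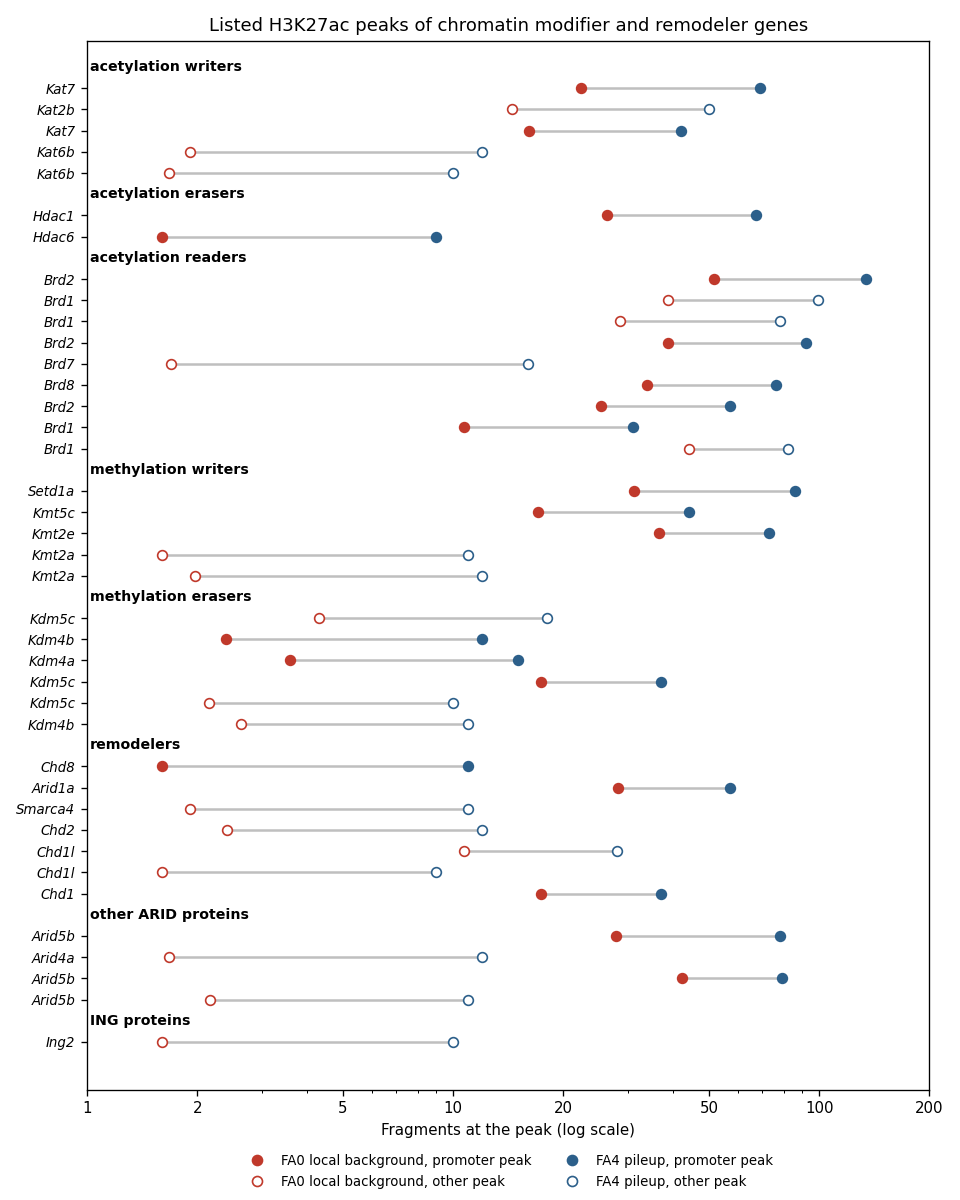
Each line is 1 of the 39 listed peaks, joining its FA0 local background (red) to its FA4 pileup (blue) in fragments on a log scale, with filled points for promoter peaks and open points for others, grouped by role. The points fall into a group with backgrounds of 10.7 to 51.6 and a group with backgrounds of 1.60 to 4.30, with none between.

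Among the acetylation writers, Kat7 encodes HBO1, the catalytic subunit of complexes that acetylate histones H3 and H4. It had a peak at chr11:95309893-95310186, with a local FA0 background of 22.4 against an FA4 pileup of 69 fragments (exact Poisson 95% interval 53.7 to 87.3, counting error only), a fold of 2.99 and a −log10 q of 10.1. The other Kat7 peak, chr11:95309243-95309508, had a background of 16.1 against a pileup of 42, and a fold of 2.51. The start of the antisense gene Gm11520 is within 1 kb, and a further peak beside it, named for Gm11520, had a background of 27.7 against a pileup of 59. Acetylation on both sides of the Kat7 start was thus listed as higher in FA4.

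Kat2b encodes PCAF, an acetyltransferase of SAGA-type complexes. Its peak was distal, at chr17:53561214-53561566 and 5550 bases upstream of the nearest tabulated start, with a background of 14.5 against a pileup of 50, a fold of 3.29 and a −log10 q of 8.33. Kat6b, which encodes the acetyltransferase MORF, had weak peaks in introns 12 and 10 of 16, with backgrounds of 1.91 and 1.68 against pileups of 12 and 10 fragments. Their folds, 4.47 and 4.10, were larger than those at Kat7 although the pileups were several times smaller. No peak was named for Kat2a, Kat5, Kat6a, Kat8 or Kat14.

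Of the acetylation erasers only the Hdac genes Hdac1 and Hdac6 had a listed peak, 2 of 11 Hdac genes and 0 of 7 Sirt genes. Hdac1 encodes a class I deacetylase shared by the NuRD, SIN3 and CoREST complexes, and its promoter peak at chr4:129542272-129542587 had a background of 26.3 against a pileup of 67, a fold of 2.49 and a −log10 q of 6.51. Hdac6 encodes a mainly cytoplasmic deacetylase that acts on tubulin. Its peak, chrX:7939705-7939966, was called on a pileup of 9 fragments over the lowest background in the table, 1.60, with a −log10 q of 1.82. The erasers with no listed peak were Hdac2, Hdac3, Hdac4, Hdac5, Hdac7, Hdac8, Hdac9, Hdac10, Hdac11 and Sirt1 to Sirt7.

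The acetylation readers held 9 of the 39 peaks. Brd2 encodes a BET protein that binds acetylated histone H4 and recruits transcription regulators. Its strongest peak, chr17:34121371-34121759 at the middle window printed above, had a background of 51.6 against a pileup of 134 fragments (95% interval 112 to 159), a fold of 2.57 and the highest −log10 q of any member, 16.0. The peak at the upstream window had a background of 38.7 against a pileup of 92, for a fold of 2.34. The peak at the downstream window had a background of 25.3 against a pileup of 57, for a fold of 2.21. All 3 lay within 2962 bases and were promoter peaks, and a start of the neighbouring gene H2-DMa, which encodes part of a class II antigen-loading molecule, is within 1 kb of a Brd2 peak.

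Brd1 encodes a scaffold that brings HBO1 or MOZ acetyltransferases to chromatin. Its 4 peaks covered 10691 bases of chromosome 15 inside the gene. The peak in intron 6 of 12 had a background of 38.7 against a pileup of 99, with a fold of 2.52 and a −log10 q of 10.8. The peaks in exons 6 and 7 of 13 had backgrounds of 28.5 and 44.2 against pileups of 78 and 82, with folds of 2.68 and 1.84. The peak called a promoter, chr15:88717034-88717372, was the weakest by pileup, with a background of 10.7 against 31. All 4 summits thus lay well inside the gene, and even that of the promoter peak was 17141 bases from the nearest tabulated start.

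Brd7 encodes a subunit of the PBAF remodeling complex. Its peak in exon 7 of 17 had a background of 1.70 against a pileup of 16, the largest fold of any member at 6.29 and a −log10 q of 6.72. Brd8 encodes a subunit of the TIP60 acetyltransferase complex, and its promoter peak had a background of 33.9 against a pileup of 76, a fold of 2.21 and a −log10 q of 5.40. A large fold and a large pileup thus came from different readers. Brd3 and Brd9 had no peak of their own name.

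**Figure D3:**
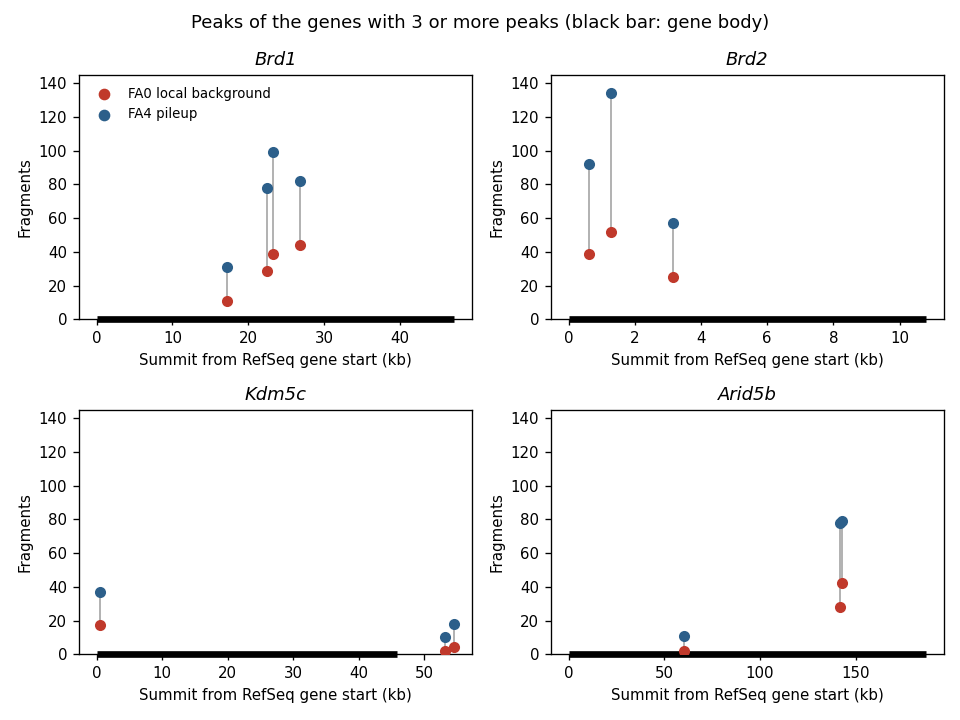
For the 4 genes with 3 or more peaks, each point pair gives the FA0 local background (red) and the FA4 pileup (blue) in fragments at a summit, by its distance in kb from the RefSeq gene start, and the black bar is the gene body. Brd2 peaks sat within 3141 bases of the start, those of Brd1 between 17150 and 26804 bases inside the gene, and the 2 distal Kdm5c peaks beyond the gene's end.

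Among the methylation writers, Setd1a encodes the catalytic subunit of a COMPASS complex that methylates H3K4 at promoters. Its peak, chr7:127776684-127777300, had a background of 31.2 against a pileup of 86 fragments (95% interval 68.8 to 106), a fold of 2.71 and a −log10 q of 10.7, the highest of the methylation genes. Kmt5c encodes SUV420H2, which trimethylates H4K20 in heterochromatin, and its promoter peak had a fold of 2.48, a background of 17.1 against a pileup of 44, with a Gm42369 start within 1 kb. Kmt2e encodes MLL5 and was counted as a writer by its symbol, not by a known activity. Its promoter peak had a fold of 1.97, from a background of 36.5 against a pileup of 73. A second peak inside Kmt2e, near its start, carried the name of the noncoding gene 5031425E22Rik and had a background of 44.8 against a pileup of 90, so the list held 2 peaks just inside that start.

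Kmt2a, which encodes the H3K4 methyltransferase MLL1, had no promoter peak. Both of its peaks were annotated by the authors to a 3′ UTR. Their summits, however, lay 50070 and 56594 bases from the RefSeq start, inside a gene of 77998 bp. They had backgrounds of 1.60 and 1.97 against pileups of 11 and 12 fragments and folds of 4.61 and 4.37. The methylation writers with no listed peak were Kmt2b, Kmt2c, Kmt2d, Kmt5a, Kmt5b, Setd1b, Setd2, Setd3, Setd4, Setd5, Setd6 and Setd7.

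The 3 promoter peaks of the methylation erasers had a median pileup of 15 and the 3 of the writers one of 73. Outside promoters the medians were 11 (3 peaks) and 11.5 (2 peaks). Kdm5c encodes an X-linked demethylase of H3K4, and its promoter peak, chrX:152233453-152233713, had a background of 17.4 against a pileup of 37, a fold of 2.06 and a −log10 q of 1.76. Its distal peaks, both past the gene's end, had backgrounds of 4.30 and 2.15 against pileups of 18 and 10, with folds of 3.59 and 3.49. Kdm4a and Kdm4b encode demethylases of H3K9 and H3K36. The Kdm4a promoter peak had a background of 3.58 against a pileup of 15, the Kdm4b promoter peak 2.39 against 12, and the Kdm4b peak in intron 5 of 22 had 2.63 against 11.

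No Kdm peak had a pileup above 37 fragments, and 1 of the 6 had a −log10 q above 3 (3.01, distal of Kdm5c). The erasers with no listed peak were Kdm1a, Kdm1b, Kdm2a, Kdm2b, Kdm3a, Kdm3b, Kdm4c, Kdm4d, Kdm5a, Kdm5b, Kdm5d, Kdm6a, Kdm6b, Kdm7a and Kdm8. The list therefore held neither of the H3K27 demethylases Kdm6a and Kdm6b.

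Among the remodelers, Arid1a encodes a DNA-binding subunit of the BAF complex, and its promoter peak at 1 to 2 kb had a background of 28.2 against a pileup of 57, a fold of 1.99 and a −log10 q of 2.58. Smarca4 encodes BRG1, the ATPase of that complex. Its peak in intron 13 of 33 had a background of 1.91 against a pileup of 11, and it was the 1 peak listed for 13 Smarc genes. A further peak inside Smarca4, named for the small RNA Gm27373, had 2.63 against 17 and a fold of 4.95. Another inside Arid1a, named for Pigv, had 5.01 against 18 and a fold of 3.16.

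The CHD family of remodelers had peaks named for 4 of 10 genes (40%), beside 9.23% of all protein-coding genes. The doubtful Chd1 is 1 of those 4. Chd8, which encodes a remodeler that binds active promoters, had a peak at 2 to 3 kb with a background of 1.60 against a pileup of 11 (fold 4.61). Chd2 had a peak in intron 26 of 38, with 2.41 against 12, and a peak named for the antisense gene Gm44686 inside it had 51 fragments and a fold of 1.92. Chd1l encodes ALC1, a remodeler activated by poly(ADP-ribose), and had distal peaks with backgrounds of 10.7 and 1.60 against pileups of 28 and 9. The peak named Chd1 had 17.4 against 37.

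The peaks named for remodelers thus did not exceed a −log10 q of 3.01. The peak inside Smarca4 named for Gm27373 had 4.98. The remodeler genes with no listed peak were Arid1b, Arid2, Chd3, Chd4, Chd5, Chd6, Chd7, Chd9, Smarca1, Smarca2, Smarca5, Smarcad1, Smarcal1, Smarcb1, Smarcc1, Smarcc2, Smarcd1, Smarcd2, Smarcd3 and Smarce1.

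The other ARID genes encode DNA-binding proteins outside the BAF complexes. Arid5b, a partner of the demethylase PHF2, had promoter peaks at chr10:68137093-68137375, with a background of 27.9 against a pileup of 78 (fold 2.73), and at chr10:68136361-68136619, with 42.3 against 79 (fold 1.85). Nearly equal FA4 pileups thus went with different backgrounds. A further Arid5b peak, in intron 3 of 9, had 2.17 against 11. Arid4a, which encodes an RB-binding part of the SIN3 complex, had a peak in intron 16 of 23 with 1.68 against 12, a fold of 4.84 and a −log10 q of 3.56. Of the ING genes, Ing2 alone had a peak, a distal one with 1.60 against 10, and ING2 is the subunit that ties the SIN3 deacetylase complex to methylated H3K4. Arid3a, Arid3b, Arid3c, Arid4b, Arid5a, Ing1, Ing3, Ing4 and Ing5 had no listed peak, nor did Brd3os and Brd8dc, whose roles are not given here.

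Over all their peaks the acetylation genes had a median background of 23.9 against a median pileup of 62, and their median fold was 2.62. The methylation genes had 3.58 against 15 and a fold of 3.49, and the remodelers 2.41 against 12 and a fold of 3.82. Over all peaks, acetylation genes thus had the highest signal in both libraries and the smallest fold of the 3 classes. Among peaks with a −log10 q of at least 3 the median pileups were 68 for acetylation, 44 for methylation and 11 for remodeler genes. The remodeler value was that of 1 peak, at Chd8. With peaks assigned by RefSeq gene spans the median pileups were 57, 31 and 17. When only folds of at least 3 were kept they were 12, 12 and 11. The median folds were then 4.10 for acetylation genes, 3.59 for methylation genes and 3.98 for remodelers. That set was selected on the fold itself, so the order of its median folds does not describe the classes. Taking the strongest peak of each gene, the pileups were 67, 18 and 20 fragments for acetylation, methylation and remodeler genes. Leaving out Brd1 and Brd2 brought the acetylation genes to medians of 14.5 for background, 42 for pileup and 3.29 for fold.

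The fold of a member peak went with its background. Among peaks with a background of at least 10, the median fold was 2.52 in 12 acetylation, 2.27 in 4 methylation and 2.06 in 3 remodeler peaks, beside 2.49 in 770 peaks of protein-coding genes. The remodeler median was the fold of the doubtful Chd1 peak, between Arid1a (1.99) and Chd1l (2.47). Among peaks with a background under 5, the median fold was 4.28 in 4 acetylation, 3.59 in 7 methylation and 3.98 in 4 remodeler peaks, beside 4.12 in 1490 peaks of protein-coding genes. In both of these sets acetylation genes had the largest median fold of the 3 classes, whereas over all peaks they had the smallest. Backgrounds still differed within the sets. Under 5 the median background was 1.69 for acetylation, 2.39 for methylation and 1.76 for remodeler peaks. In the set of at least 10 it was 27.4, 24.3 and 17.4. A peak over a low background needs a large fold to be called, and 5 of 39 member peaks (12.8%) stood within 0.01 of the lowest background, against 27.3% of all peaks of protein-coding genes.

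**Figure D4:**
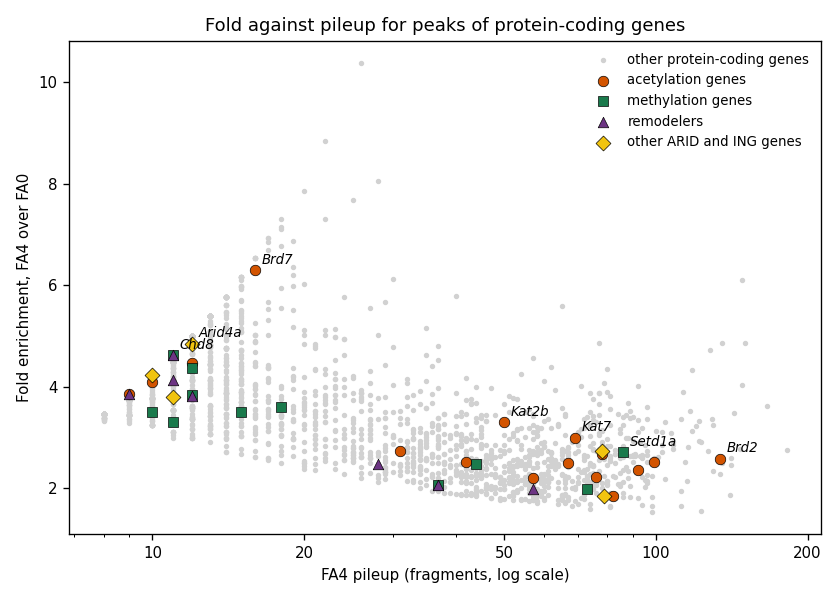
Each point is 1 listed peak of a protein-coding gene, with FA4 pileup in fragments on a log axis and fold (FA4 over FA0) on a linear axis, and the 39 member peaks are coloured by class over the others in grey. Brd7 stands at 16 fragments and a fold of 6.29, and Brd2 at 134 fragments and a fold of 2.57.

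Promoter peaks of members had medians of 23.9 for background, 57 for pileup and 2.50 for fold, against 12.4, 36 and 3.05 for all promoter peaks of protein-coding genes. Peaks outside promoters had 2.15, 12 and 3.82, against 1.70, 11 and 3.84. Members thus stood above all protein-coding genes in promoter signal and beside them elsewhere. Promoter peaks of Zfp genes had medians of 17.1, 43 and 2.38, also with more signal and a smaller fold than all such peaks. At a −log10 q of 3, which 23 of the 39 peaks reached, the members just outside were Kmt2a (3.00, unrounded below the limit), Arid1a (2.58) and Smarca4 (2.44), and those just inside were Arid5b, Chd8, Kdm5c and Kmt2a, all at 3.01.

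The authors' promoter class follows any annotated transcript start, and many such starts lie away from the RefSeq start of the member. Of the 20 promoter peaks 10 had their summit within 3 kb of the RefSeq gene start, 9 of them downstream of it, and 10 peaks of 9 genes did not. Against the tabulated promoter windows, which 15 of the 20 peaks had, 9 summits were within 3 kb of a start. The 6 others were those of Hdac6 (8121 bases), Brd1 (17141), Kdm4a (18542), Chd8 (22416) and both of Arid5b (141460 and 142247). These promoter peaks therefore mark internal or alternative starts by annotation. Of the 19 peaks outside promoters 13 lay inside the RefSeq body of their own gene.

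Some members without a listed peak had a peak of another name nearby. Inside the bodies of Brd9, Hdac4 and Hdac9 lay 1 peak each, named for Gm41002, Gm37036 and Gm47357, with backgrounds of 1.60 against pileups of 10, 10 and 8. Near the start of Setd3 lay a peak named for Ccnk, with a background of 8.83 against a pileup of 31 (fold 3.25). It was the 1 such case among 66 unlisted members whose strand was known. For 16 of the 82 unlisted members the strand was not known, and peaks near their starts were not searched for. The FA0 and FA4 levels of members without a peak are not in the table.

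The promoter sequences of members with and without a promoter peak were compared as descriptions. Windows were tabulated for 11 of the 16 genes with a promoter peak (14 windows) and for 73 of the other 91 members (104 windows), and 21263 windows stood for all protein-coding genes. The GC box GGGCGG, read on both strands like every motif, was in 7 of 14 windows (50%), 77 of 104 (74.0%) and 46.2% of all windows. The median window had 22, 25 and 13 CpGs in these sets. Members thus had CpG-rich promoters whether or not a peak was listed, and the GC box was in a larger share of the windows of those without, a difference that was not tested. In the 1108 windows of all protein-coding genes with a promoter peak, the GC box share was 61.2% and the median 22 CpGs. The CpG count of members with a promoter peak was thus that of genes with a promoter peak in general.

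The YY1 match AAGATGGCG was in 2 of 14 windows (the downstream one of Brd2 printed above, and that of Kdm5c), 2 of 104 and 1.83% of all windows. The ETS match CCGGAAG was in 3 of 14, 17 of 104 and 11.6%, and the NRF1 match GCGCATGC in 1 of 14, 7 of 104 and 3.52%. CCAAT was in 6 of 14, 39 of 104 and 38.2%, and TATAAA in 1 of 14, 6 of 104 and 12.6%. The E-box CACGTG (5 of 104 and 7.84%) and the octamer ATTTGCAT (2 of 104 and 1.66%) were in none of the 14. In windows of all protein-coding genes with a promoter peak the shares were 4.78% for YY1, 17.9% for ETS and 6.23% for NRF1. They were 40.3% for CCAAT, 7.94% for TATAAA, 9.30% for the E-box and 1.08% for the octamer. With 14 windows, 1 window moves a share by 7.14 percentage points.

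Chromatin genes that the symbol rule does not cover, 148 genes in lists by role, had a promoter peak in 15 cases (10.1%), between the 15.0% of members and the 4.73% of all protein-coding genes. Among their writers of acetylation, Jade1, a scaffold of HBO1 complexes, had a promoter peak with a background of 36.0 against a pileup of 82 (fold 2.24), while the coactivator gene Crebbp had an intronic one with 1.99 against 14. Among the readers, Zmynd8 had an intronic peak with 19.2 against 64, Trim28 had a fold of 2.79 and Atad2 one of 2.90. Among methylation writers, Ash2l, a core COMPASS subunit that works with SETD1A, had 35.3 against 94 and a fold of 2.61, and the Polycomb gene Suz12 a fold of 2.72. Srcap, the ATPase that deposits histone H2A.Z, had 31.3 against 100, a fold of 3.13 and a −log10 q of 16.9, close to the highest of the members at Brd2. Of 25 further eraser genes 1 had a promoter peak (Mta3, fold 1.89), a share of 4.00% beside 11.1% of the Hdac and Sirt genes.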

How the data were processed

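H3K27ac ChIP-seq was done in Sv129 mESCs with FA0 and FA4 medium, 1 IP and 1 input library each. Chromatin was digested enzymatically, and PCR duplicates could not be told from separate molecules, so intervals hold only the counting error. Per the submitters' processing notes bcl2fastq 2.17, Bowtie 1.1.2, mm10 and MACS2 2.1.0 were used. Their settings, and the library that served as control, are, in the sources used here, not given. The 2 input libraries were not analysed here.

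The authors deposited a table of 4088 peaks and a table of 1538 promoter peaks, all of which are in the first. The pileup is a signal deposited in whole fragments at the summit. The authors deposited the peak caller's −log10 q-value, computed from its p-value (not used here), the lowest −log10 q being 1.31 (q-value threshold 0.05). The ratio called fold enrichment was deposited as (pileup + 1) over (local background + 1). Widths and distances were deposited in bp, and peaks were annotated by the authors to the nearest transcript start.

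The local background was computed as (pileup + 1)/fold − 1. Peaks of low background need a larger fold to be called. Genes were matched by symbol to RefSeq (GRCm38.p6), and 2022 of 2044 protein-coding symbols matched. Members, roles and the lists of other chromatin genes were chosen with earlier results of these data known. The text names every member with a peak, members without a peak by role (1 is not reported here), members either side of a −log10 q of 3, and up to 4 genes of each further list by −log10 q. Pileups have exact Poisson 95% intervals. Motifs were searched on both strands of the tabulated RefSeq windows. No test was made between FA0 and FA4, since each has 1 library. The counting steps were tested on simulated data. Alternatives changed the −log10 q and fold minimum, the promoter width, the peaks taken per gene, the chromosomes and the gene assignment. Software was Python 3.11.15 with numpy 2.4.6, pandas 2.3.3, matplotlib 3.10.9 and scipy 1.17.1.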

Additional observations from a re-analysis of the deposited data

How the results depend on the processing

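No paired analysis was possible because FA0 and FA4 have 1 IP library each, so no replicate could be left out either. Requiring a −log10 q of at least 3 left 16 members with a peak and 10 with a promoter peak, with a median background of 25.3 and a median pileup of 67 over all their peaks. Requiring a fold of at least 3 left 15 and 4 members, a promoter share of 21.1%, a median background of 1.91 and pileup of 11 over all peaks, and a median background of 1.99, pileup of 11.5 and fold of 3.84 over promoter peaks. Assigning peaks by RefSeq gene spans left 10 members with a promoter peak and a promoter share of 35.7%. All protein-coding genes were not counted under the fold minimum or by RefSeq spans. Whether members stood above them there is therefore not known. The following were chosen after seeing the data. Leaving out Brd1 and Brd2 gave a median background of 3.10 and a median pileup of 15.5. Promoter peaks with a background under 5 had a median fold of 3.84. Genes with 20 or more CpGs in a tabulated window gave 7 members with a promoter peak. Promoters counted only by a summit within 3 kb of the RefSeq gene start gave a share of 25.6%. Leaving out the Chd1 peak moved none of these summaries by over 1.5 times. Of 88 values for members as a whole 70 stayed within 1.5 times, or within the 95% binomial interval for the share. Some settings, such as leaving out the Chd1 peak, removed few peaks and could hardly move a value. The interval for the share, 34.8 to 67.6, is wide and takes in the 35.7% of the RefSeq assignment. The counts by class rest on few genes, and remodelers with a promoter peak numbered 0 under the RefSeq assignment, against 3. Without replicates, IP efficiency and depth cannot be told apart from the medium.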

Other observations

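Jarid2, a partner of Polycomb repressive complex 2 that belongs to the JmjC family of demethylases by sequence, was the companion gene with most listed peaks, 9 along chromosome 13. They had local FA0 backgrounds of 17.2 to 27.2 against FA4 pileups of 38 to 78, with folds of 1.90 to 2.91. The strongest, at a promoter, had 26.1 against 78 and a −log10 q of 11.1. Actb, whose protein is also a subunit of BAF and INO80 remodeling complexes, had a promoter peak with 20.8 against 73 and a fold of 3.40. Cecr2, a bromodomain gene, had a distal peak over the lowest background, 1.60 against 15, with a fold of 6.15.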
